A study of Rattus norvegicus with 12 samples.

Results

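Myosin heavy chain genes carry microRNAs (miRNAs) of their own, named myomiRs, of which miR-208a, miR-208b and miR-499 were examined here with both arms of each hairpin. The members were the 6 rat miRNAs of these 3 hairpins (rno-miR-208a-5p, rno-miR-208a-3p, rno-miR-208b-5p, rno-miR-208b-3p, rno-miR-499-5p and rno-miR-499-3p, written below without the prefix for rat), chosen by name from the 758 rat miRNAs on the array. Earlier results of these data were known when they were chosen. MiRNA expression was measured in the hearts of 12 male Wistar rats, split evenly into Sham, MI and YQFM (n = 4), each rat having its own single-dye Agilent rat miRNA array. The labels call the MI group a chronic heart failure group; according to the study's methods MI and YQFM rats had a ligature placed around the left anterior descending coronary artery, the Sham rats had surgery without ligature, and tissue was taken from the left ventricle near the infarct. Treatment started 4 weeks after surgery, when YQFM (Yiqifumai Injection, a preparation of botanical drugs) was given intraperitoneally at 5 mg/kg/d for 28 days, while Sham and MI rats received saline.

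Each of these miRNAs is transcribed within a myosin gene. Mir208a lies in Myh6, which encodes the fast alpha myosin heavy chain that dominates in the adult rat ventricle, Mir208b lies in Myh7, which encodes the slow beta chain, and Mir499a lies in Myh7b. A hairpin is cut into a 5p and a 3p arm, either of which can be loaded into the silencing complex, and bases 2 to 8 of the loaded arm, the seed, guide it to messenger RNAs. In the rodent heart miR-208a is known for the control of the balance between Myh6 and Myh7 under load, and a switch from Myh6 to Myh7 expression is a textbook feature of the failing rodent ventricle.

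The mature sequences are shown to make clear which arms share a seed, given in capitals. All 6 members were found among the 693 mature rat miRNAs of the RefSeq table (GRCr8).
miR-208a-3p: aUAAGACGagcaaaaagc
miR-208b-3p: aUAAGACGaacaaaaggu
miR-499-5p: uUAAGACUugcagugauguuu
miR-208a-5p: gAGCUUUUggcccggguuauac
miR-208b-5p: aAGCUUUUugcucgcguuau
miR-499-3p: aACAUCACagcaagucugugcu
Both 3p arms of miR-208 had the same seed, and miR-499-5p shared bases 2 to 7 with them. Both 5p arms of miR-208 shared another seed, and miR-499-3p shared its seed with no other member. Counted from the 5′ end, miR-208a-3p and miR-208b-3p were identical at 15 of 18 positions and differed by G10A, A16G and C18U, with the base of miR-208a-3p first.

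The hairpins are shown with the mature arms in capitals, since the results turn on which arm gave a signal. Mir208a was annotated at chr15:32395552-32395634 and Mir208b at chr15:32421615-32421726, both on the minus strand, and Mir499a at chr3:164570612-164570676 on the plus strand of GRCr8. Each had the strand of its host gene; the table does not separate exons from introns.
Mir208a: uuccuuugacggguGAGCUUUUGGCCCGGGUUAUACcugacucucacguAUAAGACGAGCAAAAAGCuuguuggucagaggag
Mir208b: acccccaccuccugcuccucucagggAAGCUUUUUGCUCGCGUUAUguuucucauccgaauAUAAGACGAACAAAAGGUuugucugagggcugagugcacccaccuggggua
Mir499a: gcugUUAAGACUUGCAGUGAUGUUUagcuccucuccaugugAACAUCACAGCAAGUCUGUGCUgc
In both miR-208 hairpins the 3p arm as annotated ended after 18 bases, and the next 4 bases of the hairpin were UUGU.

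The array carried 13 probes for the members, each fully paired to its miRNA over a stretch that included the 3′ end, and to no other rat miRNA of the table. The probes of the arms described most are printed 5′ to 3′, in lower case throughout.
miR-208a-5p, 14 bases: gtataacccgggcc
miR-208a-5p, 15 bases: gtataacccgggcca
miR-208a-3p, 15 bases: gctttttgctcgtct
miR-208a-3p, 16 bases: gctttttgctcgtctt
miR-499-5p, 18 bases: aaacatcactgcaagtct
miR-499-5p, 19 bases: aaacatcactgcaagtctt
The miR-208a-5p probes paired with bases 9 to 22 and 8 to 22 of their target and had GC contents of 64.3% and 60%, against a median of 50% over all rat probes. The probes of miR-208a-3p paired with bases 4 to 18 and 3 to 18.

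The signals below are linear intensities scaled between arrays, in arbitrary units. They are comparable between arrays for the same miRNA, but not between miRNAs, whose probes differ. Detection on an array meant that a probe of the miRNA had over 50% of its spots well above background, and scaled signals under a floor of 5.20 were treated as equal. The arrays gave 211 to 268 detected miRNAs each, 24.4% to 31.6% of their 12128 spots were above background, and no spot was saturated. They lay on 3 slides that largely followed the groups. Each slide had its own scan time, so slide and scan cannot be told apart. Slide 1 held MI replicates 1 to 3, slide 2 held MI replicate 4 and YQFM replicate 1, and YQFM replicates 2 to 4 shared slide 3 with the Sham group, so no slide held both MI and Sham. The source names of MI replicate 4 and Sham replicate 4 gave another group (Sham and YQFM) than their titles and group entries, which were used here. The cardiomyocyte miRNAs miR-1-3p, miR-133a-3p and miR-133b-3p were detected on all 12 arrays, and liver miR-122-5p and neuronal miR-124-3p on none. The remaining listed marker of another tissue, skeletal muscle miR-206-3p, was detected on 3 Sham, 3 MI and 4 YQFM arrays.

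Of the 6 arms, miR-499-5p was detected on all 12 arrays, miR-208a-5p on 9 and miR-208a-3p on 1, while miR-208b-5p, miR-208b-3p and miR-499-3p were detected on none. Each hairpin thus had at most 1 arm detected on more than 1 array, the 5p arm for Mir208a and Mir499a and neither arm for Mir208b. This describes detection by these probes and does not show which arm was more abundant in the tissue. All probes of the miR-208 3p arms paired up to base 18, where the annotated arms end. The part of the probes in the missing signals was not tested. For comparison, 471 of the 758 miRNAs on the array went undetected throughout.

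**Figure D1:**
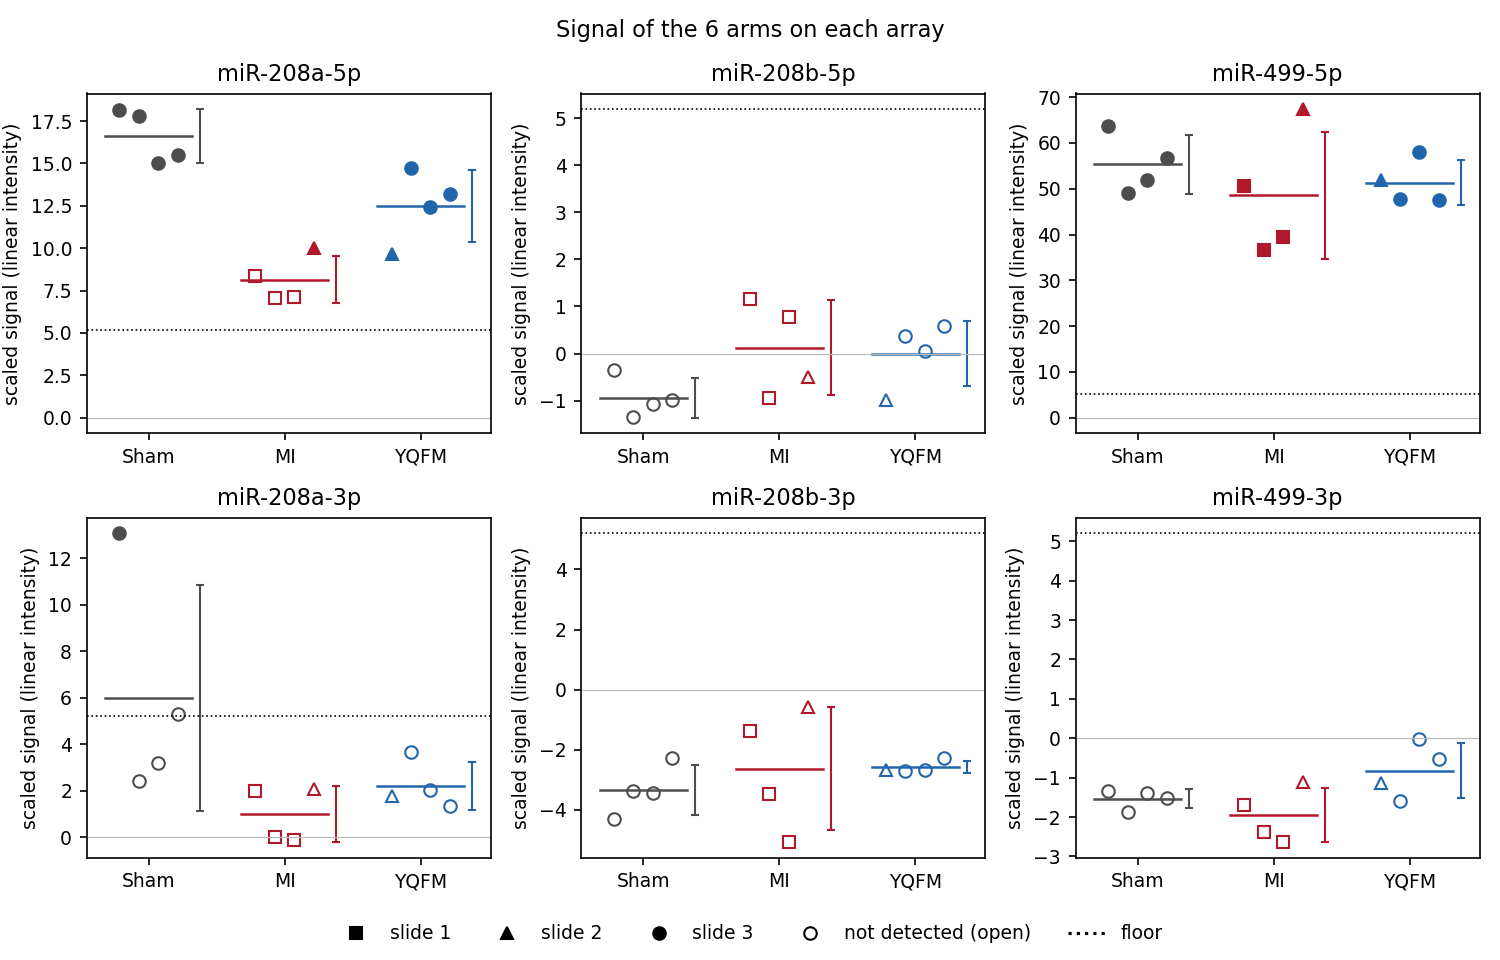
Scaled signal (linear intensity, y axis, with its own scale for each miRNA) of the 6 arms on each of the 12 arrays, by group. Points are arrays, filled where the arm was detected, with the slide as the marker shape; horizontal bars are means, vertical bars SD (n = 4), and the dotted line is the floor of 5.20. The 4 Sham points of miR-208a-5p lie above all MI points, whereas the groups of miR-499-5p overlap.

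MiR-208a-5p, the arm opposite to the one by which miR-208a is usually known, was lower in MI than in Sham hearts. Its scaled signals in Sham replicates 1 to 4 were 18.2, 17.8, 15.04 and 15.5. In MI replicates 1 to 4 they were 8.38, 7.04, 7.13 and 10.0. In YQFM replicates 1 to 4 they were 9.67, 14.7, 12.4 and 13.2. Every MI array lay below every Sham array, and the YQFM arrays lay below all Sham arrays and, with the exception of replicate 1, above all MI arrays. It was detected on all 4 Sham and all 4 YQFM arrays, but in the MI group on replicate 4 alone. Accordingly, 51 of 53 spots were well above background in Sham, 16 of 58 in MI and 50 of 59 in YQFM, so that the MI level lay near the limit of these arrays.

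On the log2 scale Sham had a mean of 4.05 ± 0.14, MI of 3.01 ± 0.24 and YQFM of 3.63 ± 0.26 for miR-208a-5p (SD, n = 4). MI against Sham gave a log2 ratio of -1.04 (95% confidence interval -1.37 to -0.71), a 2.06-fold lower signal, with an adjusted p of 0.00678 by limma over the 263 tested miRNAs and p = 0.0286 by the exact permutation test, the smallest p that 4 against 4 arrays allow. The arm passed the filter through Sham and YQFM, and since only 1 MI array of 4 detected it, the size of the fold is approximate. The ratio ranked 1 by p and 3 from the lowest among these miRNAs, whose median log2 ratio was -0.0448. It was the only member called; only 2 of the 6 members passed the filter on low signals and could be called, and 7.22% of all tested miRNAs were called in this comparison (6.84% lower in MI). Groups without overlap were found for 12.2% of the tested miRNAs.

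The difference moved with the slides. With the slide as a fixed block, which joins MI and Sham only through the pair of arrays on slide 2, the log2 ratio was -0.26 (adjusted p = 0.766, limma). With the slide as a random block it was -0.74 (adjusted p = 0.463). Within the MI group, the 3 arrays of slide 1 had signals of 7.04 to 8.38 and the array of slide 2 had 10.0. This last array was also the MI array with the conflicting source name. MI against Sham could not be compared within a slide, and the part of the slides in this difference was not tested further. In bulk tissue, fewer cells of a type and less RNA per cell cannot be told apart.

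The mean of the YQFM group lay between those of the other groups. YQFM against MI gave a log2 ratio of 0.62 for miR-208a-5p (95% confidence interval 0.29 to 0.95, 1.53-fold higher), which did not pass the adjustment (adjusted p = 0.0786, limma; exact permutation p = 0.0571). This fold, too, is approximate, as it was taken against the same MI arrays, 3 of which did not detect the arm. No miRNA of the array was called in this comparison (0% called at adjusted p, 50 miRNAs or 19% at an unadjusted p under 0.05, limma), and miR-208a-5p was among the 50. The value depended on the arrays of slide 2, where YQFM replicate 1 had 9.67 and MI replicate 4 had 10.0, a log2 difference of -0.0485. MI replicate 4 is also an array whose source name gave another group, and for this array slide and label cannot be told apart. Without MI replicate 4 the ratio was 0.72 and passed (adjusted p = 0.0105), without YQFM replicate 1 it was 0.74 (adjusted p = 0.0192), and without both 0.84 (adjusted p = 0.00216), all by limma. Without both arrays, all MI arrays lay on slide 1 and all YQFM arrays on slide 3, and here slide cannot be told apart from group.

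Against Sham, the YQFM signal of miR-208a-5p was lower by 0.42 on the log2 scale as a group mean, a ratio of -0.42 (95% confidence interval -0.76 to -0.0909) that missed the adjusted threshold (adjusted p = 0.452, limma). The groups did not overlap (exact permutation p = 0.0286); 6.08% of the tested miRNAs had no overlap in this comparison, and 0% were called (15 miRNAs, 5.7%, at an unadjusted p under 0.05, limma). On slide 3, the only slide with both groups, the 3 YQFM arrays (12.4 to 14.7) lay below the 4 Sham arrays (15.04 to 18.2), with a log2 difference of -0.31 (exact permutation p = 0.0571, the smallest possible for 3 against 4).

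**Figure D2:**
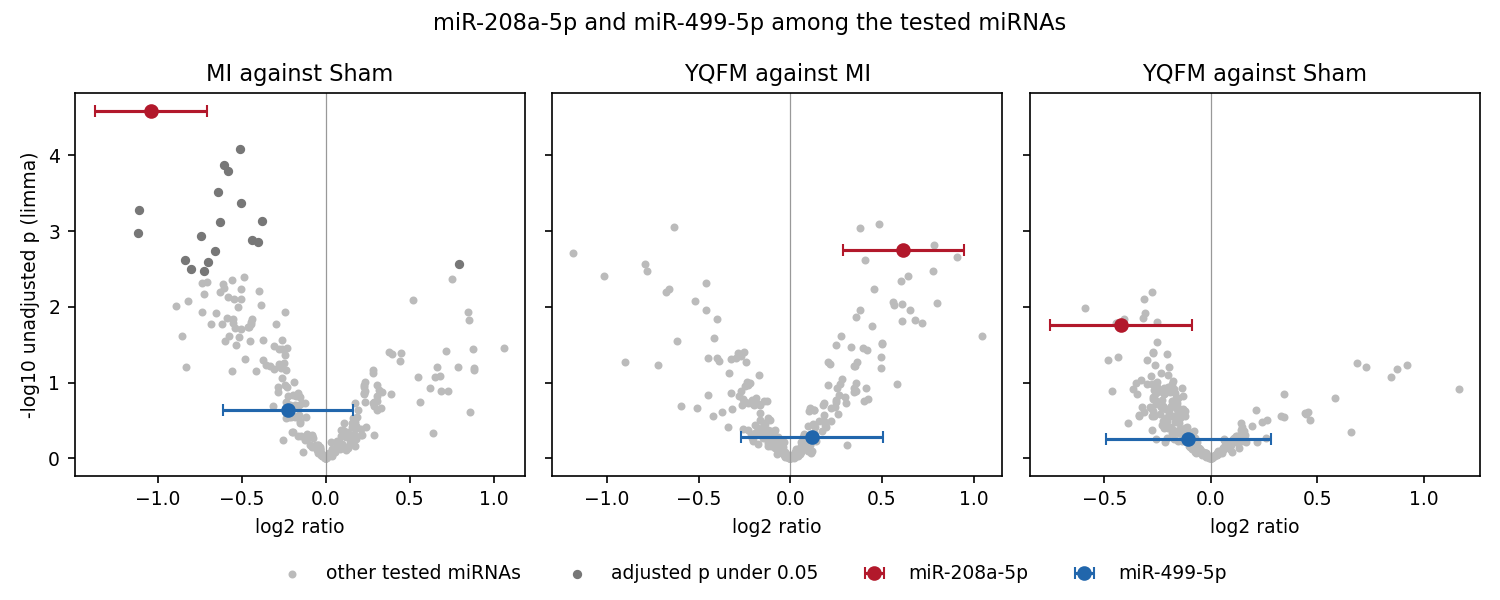
Log2 ratio (x axis) and -log10 of the unadjusted limma p (y axis) of the 263 tested miRNAs in the 3 comparisons. Grey points are other miRNAs, darker where the adjusted p was under 0.05, and coloured points with 95% confidence intervals are miR-208a-5p and miR-499-5p. MiR-208a-5p has the smallest p in MI against Sham, at -1.04, and the interval of miR-499-5p includes 0 in all 3 panels.

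MiR-499-5p, the arm of the Myh7b miRNA that shares bases 2 to 7 with the miR-208 3p arms, showed no difference past the threshold. Its scaled signals in Sham replicates 1 to 4 were 63.7, 49.2, 51.8 and 56.6. In MI replicates 1 to 4 they were 50.5, 36.6, 39.6 and 67.4, and in YQFM replicates 1 to 4 they were 51.8, 47.9, 58.1 and 47.5. The MI group held both the lowest and the highest array, and all groups overlapped. The highest array, MI replicate 4, was on slide 2, and the other MI arrays on slide 1.

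For miR-499-5p, Sham had a log2 mean of 5.78 ± 0.16, MI of 5.56 ± 0.40 and YQFM of 5.68 ± 0.14 (SD, n = 4). MI against Sham gave a log2 ratio of -0.22 (95% confidence interval -0.61 to 0.16; adjusted p = 0.426, limma; exact permutation p = 0.343). YQFM against MI gave 0.12 (-0.27 to 0.51; adjusted p = 0.841), and YQFM against Sham gave -0.11 (-0.49 to 0.28; adjusted p = 0.852). The intervals leave room for a decrease of 0.61 in MI and do not show that the groups were alike. With the slide as a fixed block the MI against Sham ratio was 0.27 (adjusted p = 0.797, limma). With the slide as a random block it was -0.0585 (adjusted p = 0.941, limma), so that the sign depended on how the slide was entered. Without a slide block, leaving out MI replicate 2, 3 or 4 gave a ratio of -0.10, -0.14 or -0.40, each outside the threshold.

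The change of the 2 detected arms was also compared within each array, as the log2 signal of miR-499-5p minus that of miR-208a-5p, a pair chosen after their values had been seen. The difference contains the miR-208a-5p signal already described, which was detected on 1 of 4 MI arrays. It is therefore not separate support, and the adjustment below does not cover the choice of pair. Sham arrays averaged 1.73 ± 0.18, MI arrays 2.55 ± 0.16 and YQFM arrays 2.05 ± 0.33 (SD, n = 4). MI exceeded Sham by 0.82 without overlap (1.47 to 1.87 in Sham, 2.38 to 2.75 in MI; exact permutation p = 0.0286, adjusted over 3 comparisons 0.0857). With the slide as a block the value was 0.52, which was not tested. With the total gene signal of Feature Extraction it was 0.16 (exact permutation p = 0.686), and with the authors' processed values 1.19 (exact permutation p = 0.0286). YQFM lay 0.50 below MI (exact permutation p = 0.0571, adjusted 0.0857) and 0.32 above Sham (exact permutation p = 0.229).

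The probes of each arm gave the same direction for MI against Sham. Within an arm the shorter probe is contained in the longer, and both were averaged into the reported signal, so they are not separate evidence. For miR-208a-5p, the 14-base probe spanned 13.3 to 16.6 on Sham arrays, 5.00 to 9.51 on MI arrays and 7.28 to 12.7 on YQFM arrays, and the 15-base probe 16.8 to 21.4, 7.77 to 10.5 and 12.1 to 16.7. MI to Sham gave a log2 ratio of -1.06 for the shorter and -1.02 for the longer probe, both without overlap (exact permutation p = 0.0286 each). They parted in YQFM against MI, where the groups overlapped for the shorter probe (0.59, exact permutation p = 0.0857) and not for the longer (0.64, exact permutation p = 0.0286). In signals averaged over probes, 6.46% of the tested miRNAs had no overlap in this comparison, and miR-208a-5p was not among them. The probes of miR-499-5p both gave a log2 ratio of -0.22 for MI to Sham (exact permutation p = 0.371 and 0.343). Spots repeated on an array varied by a median of 13.9% and 13.5% (coefficient of variation) for the miR-208a-5p probes and by 4.99% and 2.52% for the brighter miR-499-5p probes.

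**Figure D3:**
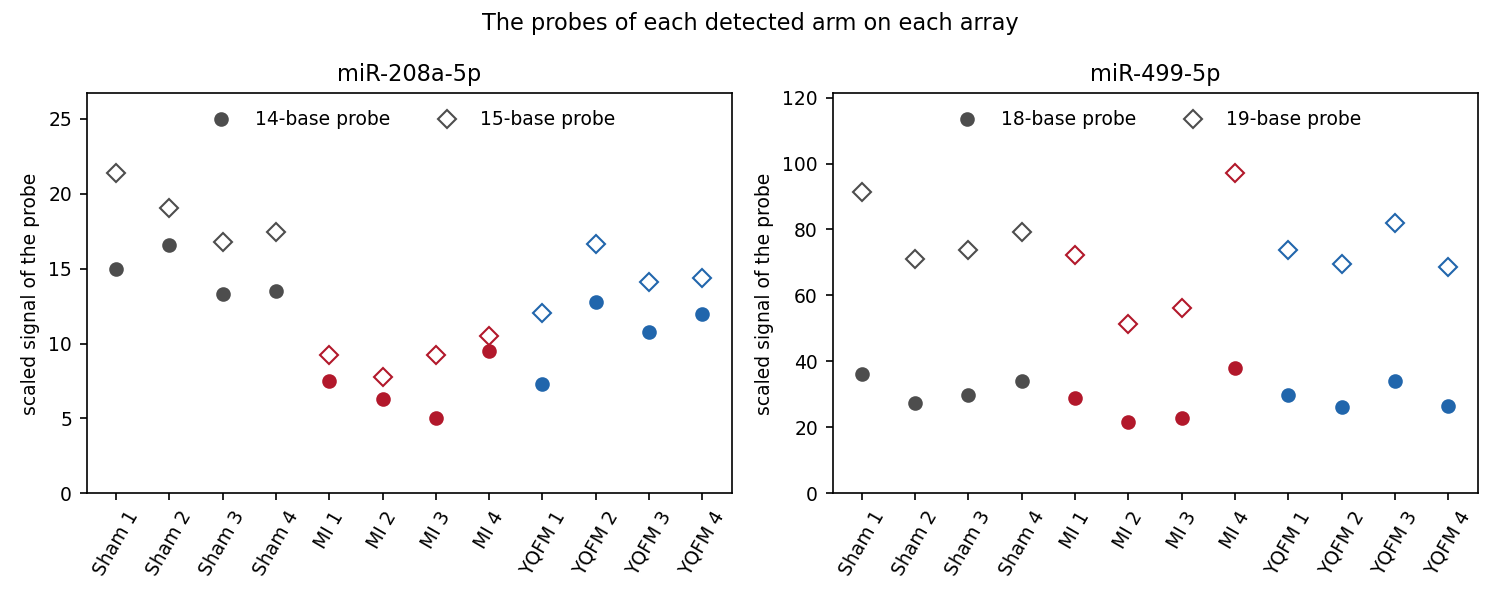
Scaled signal (linear intensity, y axis from 0) of both probes of miR-208a-5p and of miR-499-5p on each of the 12 arrays (x axis), coloured by group, with filled circles for the shorter and open diamonds for the longer probe. Both miR-208a-5p probes lie lower on the 4 MI arrays than on the 4 Sham arrays, and both miR-499-5p probes are highest on MI replicate 4.

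MiR-208a-3p, whose seed is the one shared with miR-208b-3p, was detected on Sham replicate 1 alone. Its scaled signals were 13.1, 2.42, 3.17 and 5.31 in Sham replicates 1 to 4. They were 2.00, 0.00602, -0.12 and 2.05 in MI, and 1.77, 3.68, 2.00 and 1.34 in YQFM. Sham replicates 1 and 4 exceeded the floor, and the other 10 arrays did not, so that their order carries no information. All 11 Sham spots above background, of 58, belonged to the 16-base probe, which gave 21.0 on Sham replicate 1; no spot of the 15-base probe was above background on any array. The arm did not pass the filter and was not tested.

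The arms of miR-208b, the miRNA of the beta myosin gene, were not detected in any group. Signals of miR-208b-3p were below 0 on all 12 arrays, from -5.08 to -0.58, and those of miR-208b-5p ranged from -1.35 to 1.17. None of the 63 spots of miR-208b-3p used in each group was well above background, nor was any spot of its 5p arm. The signals of miR-499-3p were likewise below 0 on all arrays (-2.64 to -0.0287). An increase of these arms in MI or YQFM was therefore not detectable above the floor of 5.20, and a comparison of miR-208b with miR-208a within arrays could not be made.

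The authors' processed values, which are not scaled between arrays and stand at 0.1 where no probe exceeded 3 times its error, rose above that value for the same arms. MiR-208a-5p and miR-499-5p were above 0.1 on all 12 arrays and miR-208a-3p on 4 (Sham replicates 1, 3 and 4 and YQFM replicate 2), while the remaining members stood at 0.1 on all. In these values the Sham arrays spanned 15.4 to 18.7, the MI arrays 3.70 to 13.7 and the YQFM arrays 12.1 to 16.4 for miR-208a-5p. The groups did not overlap for MI and Sham, and the log2 ratio was -1.44, but it was not called (adjusted p = 0.244, limma). MI replicates 2 and 3, with 3.70 and 3.91, had 1 of the 2 probes above 3 times its error, and the other 10 arrays had both.

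A different total was given for these arrays by Feature Extraction itself. Its total gene signal for miR-208a-5p was 15.5 on MI replicate 2 and 15.9 on MI replicate 3, 4.17 and 4.07 times the probe that passed, whereas on the other arrays it equalled the sum of both probes. With the total gene signal, MI to Sham gave a log2 ratio of -0.21 (adjusted p = 0.602, limma). For YQFM to MI the value was -0.0947 (adjusted p = 0.910, limma).

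**Figure D4:**
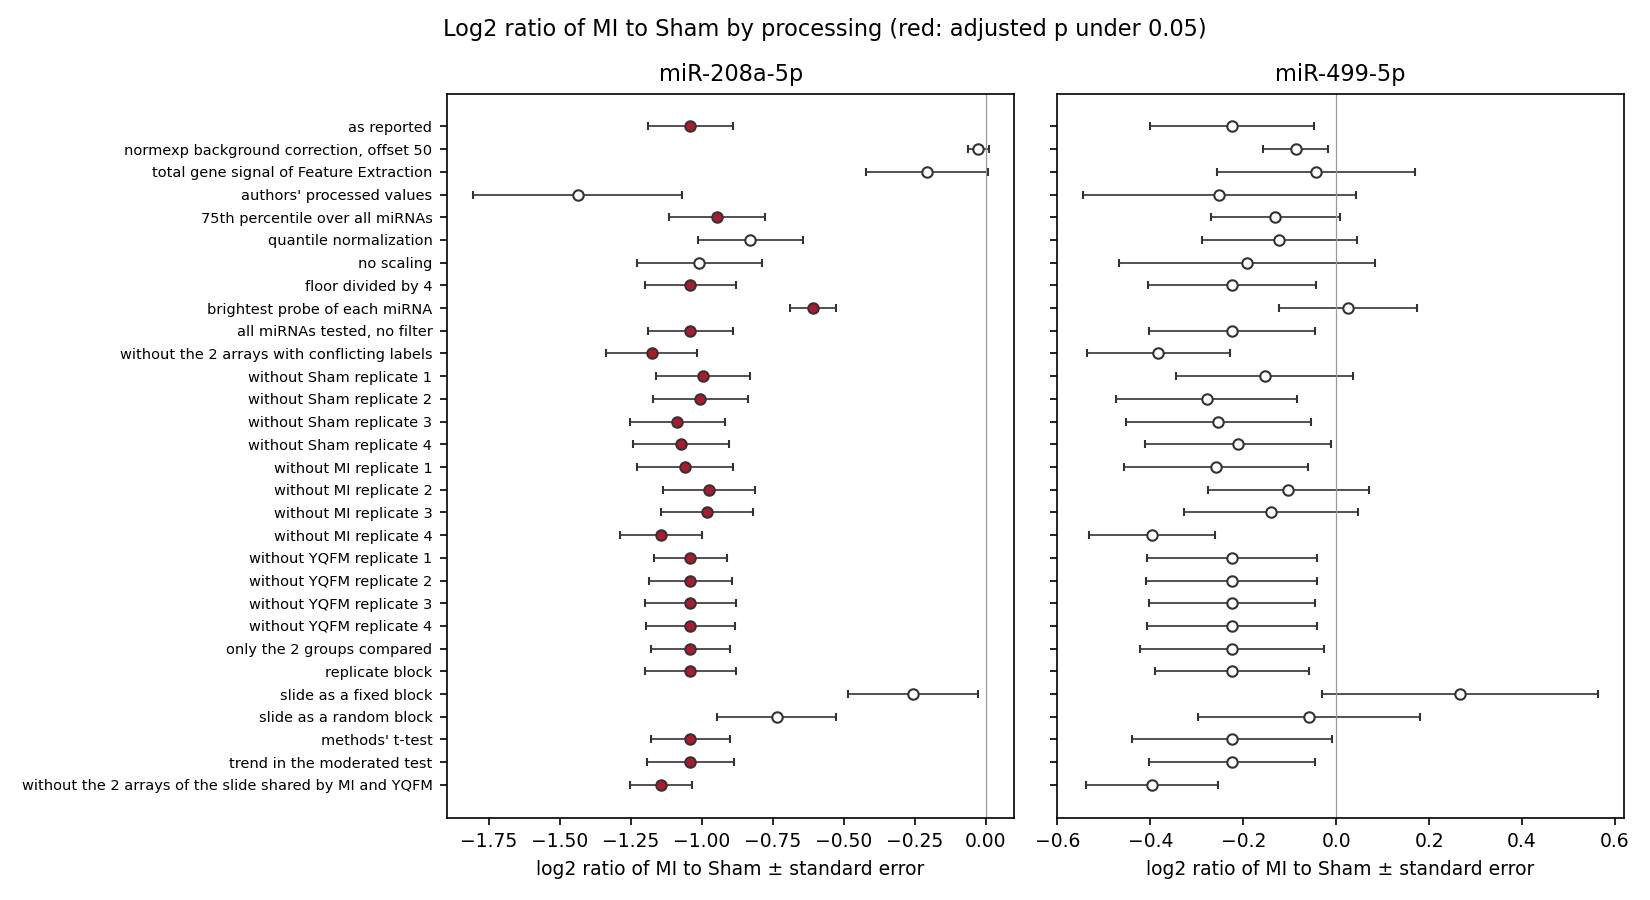
Log2 ratio of MI to Sham with its standard error (x axis) for miR-208a-5p and miR-499-5p under each way of processing that tested miR-208a-5p (y axis); red points had an adjusted p under 0.05. The ratio of miR-208a-5p is below 0 in all, from -1.44 with the authors' values to -0.0261 with normexp background correction (offset 50), and miR-499-5p has no red point.

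Other miRNAs of striated muscle give the background for the members. Of the 10 on the list, 8 passed the filter and 1 was called lower in MI than in Sham, miR-133c, a relative of miR-133a, with signals of 31.5 to 40.1 in Sham and 22.2 to 23.4 in MI (log2 ratio -0.61, adjusted p = 0.0105, limma), where 6.84% of all tested miRNAs were called lower. With the slide as a fixed or random block 0 miRNAs were called. The median log2 ratio of the list was -0.18, against -0.0448 over all tested miRNAs, and none of the list was called in the other comparisons. MiR-1-3p, the major arm of the muscle miRNA miR-1, gave -0.0419 (adjusted p = 0.899) and miR-133a-3p 0.0201 (adjusted p = 0.943), both by limma. MiR-1-5p, like miR-208a-5p, was detected on 4 Sham, 1 MI and 4 YQFM arrays, and its ratio of -0.71 did not pass (adjusted p = 0.0520, limma).

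No listed marker of the cell types below was called in any comparison. The summed signal of the 3 cardiomyocyte miRNAs was 9996 to 13329 in Sham, 9377 to 11735 in MI and 9155 to 11423 in YQFM. The 4 miRNAs listed for fibroblasts, miR-21-5p, miR-199a-3p, miR-199a-5p and miR-214-3p, were detected on all arrays and had a median log2 ratio of 0.67 for MI to Sham, with summed signals of 380 to 561 in Sham, 473 to 1104 in MI and 488 to 1543 in YQFM. Of the markers listed, 3 of 5 were tested for leukocytes, 2 of 4 for erythroid cells and 2 of 2 for endothelial cells. Their part in the lower miR-208a-5p signal was not tested.

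Across the 12 arrays, the miRNAs whose log2 signals followed miR-499-5p most closely, among 200 others detected on all arrays, were miR-149-5p (Pearson r = 0.948), miR-30b-5p (r = 0.907) and miR-30a-5p (r = 0.906). For miR-208a-5p, to which the same rule was applied after its detection was known, they were miR-292-5p (r = 0.955), miR-1199-5p (r = 0.922) and miR-1249 (r = 0.920) among 201. MiR-499-5p stood at rank 54 of these, with r = 0.536. These correlations describe arrays that share groups, slides and scaling.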

How the data were processed

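RNA from the left ventricle of 12 rats was hybridized to single-dye Agilent rat miRNA arrays. The authors deposited the scanner output, spot intensities background-subtracted by Feature Extraction 10.7.1.1, and a table of processed intensities made in GeneSpring, in which all 9096 values matched, within 0.2%, the sum of probe signals above 3 times their error. Flags of the scanner output, deposited beside the intensities, gave the spots well above background and the outliers, which were left out. Signals were averaged over spots, then over probes, and each array was scaled to a common 75th percentile, taken over the 201 miRNAs that every array detected. The 263 miRNAs detected on at least 2 of 4 arrays of a group were tested on the log2 scale over all arrays (limma 3.58.1, R 4.3.3, Benjamini-Hochberg, threshold 0.05) after a check on simulated data. P-values set group differences against the spread between arrays of a group, each from its own rat. In MI and YQFM that spread also holds slide. Without a slide block the p-values do not separate slide from group. Exact permutation tests of single values were two-sided. Other backgrounds, scalings, floors, filters, summaries, arrays left out and blocks were tried as alternatives. Members, lists and tests were chosen with earlier results of these data known. Members, the muscle list and the 3 miRNAs most similar to a member were named by rule. Sequences are from RefSeq. Python 3.11.15 was used.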

Additional observations from a re-analysis of the deposited data

Results flagged for a closer look

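In the YQFM group the scaled signal of miR-208b-3p was -2.28 on replicate 4 and between -2.70 and -2.66 on the others, a gap of 0.919 of the group's range. It was the 1 such array among 21 groups tested, and chance gives about 1 in 20. All values were below 0, and the arm was detected on no array.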

How the results depend on the processing

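The miR-208a-5p call in MI against Sham was kept in 22 of 30 alternatives, including all 12 that left out 1 array (log2 ratio -1.14 to -0.98) and the replicate block (adjusted p = 0.0425, limma). In the other 8 the number of members called was 0. Its log2 ratio was then -0.0261 with normexp background correction, which put 7 arrays at the floor of 77.8, -0.21 with the total gene signal, -1.44 with the authors' values, -0.83 with quantile normalization, -1.01 without scaling, -0.26 with the slide as a fixed block and -0.74 with it as a random block, and the filter for miRNAs detected on all arrays left it out by construction. With the brightest probe of each miRNA, counted among the 22, scaling and floor were recomputed over those probes. All 4 MI arrays were then at the floor and the ratio was -0.61. Some of the 22 left the ratio at -1.04 and bore on the p alone. These dropped a YQFM array, the filter or the group not compared, lowered the floor, added the replicate block or changed the test. Of the changes to background, scaling, summary or slide, only the percentile over all miRNAs and the brightest probe kept the call. The total of called miRNAs, 19 as reported, ranged from 0 with either slide block, no scaling, the total gene signal or the authors' values to 62 without MI replicate 4 and 69 without both arrays of slide 2, an alternative chosen after seeing the data, and was 4 without MI replicate 3. The methods' t-test called 6 miRNAs after adjustment and 59 before, miR-208a-5p in both.

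In YQFM against MI, members called ranged from 0 to 1 as single arrays were left out, with a miR-208a-5p ratio of 0.53 to 0.74. The count was 1 without the arrays with conflicting labels (ratio 0.72) and without the arrays of slide 2 (0.84). The ratio turned to -0.0947 with the total gene signal and -0.0485 with the slide as a fixed block. In YQFM against Sham no alternative called a member, and the ratio turned to 0.00254 with normexp.

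MiR-499-5p was called in none of its alternatives. Its sign turned in MI against Sham with the brightest probe of each miRNA, rescaled (0.0259), and with the slide as a fixed block (0.27). In YQFM against MI it turned with the brightest probe (-0.00641) and the slide as a fixed (-0.38) or random block (-0.0740), and ranged from -0.00336 to 0.29 as single arrays were left out. In YQFM against Sham it turned with the total gene signal (0.0140), the authors' values (0.0531), the percentile over all miRNAs (0.00992), no scaling (0.0501) and the brightest probe (0.0195). The within-array difference turned with normexp and its offset of 50 in all 3 comparisons (-0.0611, 0.00902 and -0.0521). It also turned with the total gene signal in YQFM against MI (0.15), which lowered it to 0.16 in MI against Sham. Where construction is not named, the cause was not tested.

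The labels do not say that replicate numbers pair the rats, and 4 of 12 same-number correlations were above 0.1 (-0.64 to 0.32). The replicate block changed no call of a member. The planned within-array differences against miR-208a-3p and miR-208b-3p were not run, since these arms were at the floor on 10 and on 12 arrays. Signal over background limits miR-208a-5p in MI, and 4 arrays per group limit the precision.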
